A study of Mus musculus with 4 samples.

Results

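The genes described here are 10 of the 32285 in the RNA matrices. They are Nfe2l2, which encodes the transcription factor Nrf2, its inhibitor Keap1, the antioxidant genes Nqo1, Gclc, Gclm, Srxn1, Txnrd1 and Slc7a11, which Nrf2 is known to drive, and the metallothionein genes Mt1 and Mt2. They were chosen by name, with earlier results of these data known, and each was found in both RNA matrices. In the ATAC layer, the 47 of 162879 regions that lie within 10 kb of a start site of these genes were taken with them.

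The study read RNA and open chromatin (ATAC-seq) from the same nuclei by 10x Multiome to compare liver immune cells of the healthy state with those of early cholestasis. C57BL/6J mice received chow with 0.1% DDC, a xenobiotic that injures the bile ducts, for 0 days (D0) or 5 days (D5). The groups share strain and sort and differ in the days of diet, and the labels give neither age nor the number of animals behind a library. Living CD45+ CD64- CD11c+ liver cells were sorted and nuclei were isolated from them, a gate that holds dendritic cells (DC) and other CD11c+ leukocytes and is set against CD64+ macrophages. The 4 samples are the RNA and ATAC layers of 1 library a day. The day and the library therefore cannot be told apart, no difference between days has a replicate check, and each interval below is a 95% interval of counting error only.

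The RNA layers held 44496348 UMIs (unique molecular identifiers) in 16260 called barcodes at D0 and 94374499 UMIs in 27873 barcodes at D5, with medians of 1799 and 2790 UMIs, and the libraries shared 591 barcodes. After filters and removal of doublets, 10982 nuclei of D0 and 19832 of D5 remained. Clusters were named from marker lists: 1808 and 5806 nuclei (D0 and D5) were cDC2-like, 1512 and 2696 cDC1-like, 297 and 1019 like Ccr7+ mature DC, 2356 and 2069 like plasmacytoid DC (pDC), 841 and 1224 macrophage-like, 1547 and 1138 NK cell-like and 349 and 433 T cell-like. Another 20.4% and 27.0% of the nuclei lay in clusters left unnamed, so that an order of levels holds among the 7 named classes. The macrophage-like cluster was led by Apoe, C1qa, C1qb and C1qc and also had 4 raised markers of nonclassical monocytes, while the Kupffer cell markers Clec4f and Marco had 3 and 0 UMIs in it at D0 and 78 and 42 at D5, and Timd4, another, had 5 and 7. The T cell-like cluster also had 7 raised NK cell markers. The cDC1-like nuclei joined a cluster of 1094 and 2587 nuclei (D0 and D5) with one of 418 and 109, whose leading genes included Hsph1 and Hspa1a. The part of this shift in makeup in the cDC1-like ratios between days was not tested. Levels are UMIs per 1000000 UMIs of a class (CPM), which rank classes for a gene and not genes against each other. The RNA of barcodes with at most 100 UMIs outside the called set gives the free RNA of each library. A class level at or below it is given as such, which does not show that it came from free RNA. At D0 a list of hepatocyte genes stood at 0.222 times free RNA in pDC-like and 1.83 times in macrophage-like nuclei. The part of free RNA in a class level was not tested.

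Nrf2 is held in the cytoplasm by Keap1, which passes it to the proteasome, until electrophiles or oxidants modify Keap1. Nrf2 then accumulates, binds antioxidant response elements (AREs) with small Maf partners and drives genes for glutathione synthesis, thioredoxin and peroxiredoxin recycling, quinone reduction and ferritin. Metallothioneins are small cysteine-rich proteins that bind zinc and copper. Their genes respond to metal through metal response elements (MREs) and the factor Mtf1, to glucocorticoids and, in part, to Nrf2, and they are abundant in hepatocytes under stress.

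The promoters of 4 members are shown, since Gclm, Srxn1 and the metallothioneins carry differences between days described below. RefSeq windows from 250 bases before to 50 after the start (build GRCm38.p6) were found for 9 of the 10 members, in 11 windows because Txnrd1 had 3. Capitals mark matches to the ARE (TGACNNNGC) and to the MRE core (TGCACNC or TGCGCNC) on either strand. All 4 windows lie on the plus strand: Mt2 at chr8:94172368-94172667, Mt1 at chr8:94178839-94179138, Gclm at chr3:122245307-122245606 and Srxn1 at chr2:152105274-152105573.
Mt2: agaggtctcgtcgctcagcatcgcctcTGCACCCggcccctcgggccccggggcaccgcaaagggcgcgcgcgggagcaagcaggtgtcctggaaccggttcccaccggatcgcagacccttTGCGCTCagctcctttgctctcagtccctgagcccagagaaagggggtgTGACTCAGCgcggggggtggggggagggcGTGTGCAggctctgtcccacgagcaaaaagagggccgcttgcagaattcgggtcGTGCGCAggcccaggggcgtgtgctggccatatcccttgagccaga
Mt1: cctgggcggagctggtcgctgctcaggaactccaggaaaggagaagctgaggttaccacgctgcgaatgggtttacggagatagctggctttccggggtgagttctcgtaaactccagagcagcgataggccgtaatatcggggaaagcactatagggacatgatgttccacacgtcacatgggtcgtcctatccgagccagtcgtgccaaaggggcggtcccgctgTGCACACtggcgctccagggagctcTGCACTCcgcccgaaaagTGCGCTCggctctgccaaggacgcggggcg
Gclm: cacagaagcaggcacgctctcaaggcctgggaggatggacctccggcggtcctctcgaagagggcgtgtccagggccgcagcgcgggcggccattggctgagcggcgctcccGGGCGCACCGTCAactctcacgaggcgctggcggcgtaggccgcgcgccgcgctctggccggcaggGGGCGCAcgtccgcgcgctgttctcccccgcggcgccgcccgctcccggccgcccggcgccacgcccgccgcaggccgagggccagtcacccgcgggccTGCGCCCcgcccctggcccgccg
Srxn1: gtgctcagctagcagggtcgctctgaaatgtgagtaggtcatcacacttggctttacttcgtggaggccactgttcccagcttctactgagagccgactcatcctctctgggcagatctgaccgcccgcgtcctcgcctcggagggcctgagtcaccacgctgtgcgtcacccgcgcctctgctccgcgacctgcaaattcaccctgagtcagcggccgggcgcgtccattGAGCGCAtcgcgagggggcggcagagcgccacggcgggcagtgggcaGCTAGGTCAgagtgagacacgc
The Mt2 window held 1 ARE match, which begins 79 bases before the start, and 4 MRE matches. The Mt1 window held 3 MRE matches and no ARE match. The start sites used for the ATAC layer run to 94179241 for Mt1, 94172860 for Mt2 and 122245668 for Gclm. These lie past the ends of the windows, and the bases between were not searched, so a motif may be missed there. Of all 32851 promoter windows of this length, 1.97% held at least 3 MRE matches and 0.517% at least 4. Gclm held 1 ARE match, which overlaps an MRE match, and 3 MRE matches in all, and Srxn1 held 1 of each. At least 1 ARE match was present in 12.4% of all windows and at least 1 MRE match in 25.7%. Nfe2l2 and 1 of the 3 Txnrd1 windows also held an ARE match, and Keap1, Nqo1 and Slc7a11 held neither motif in these windows. A match is a run of letters and was not tested as a binding site.

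Between the days, members were called in both directions. Of the 10 members, 4 to 9 per class had the 50 UMIs over both days that were asked of a ratio, and 8 member-by-class comparisons were at least 1.5-fold higher at D5 while 8 were at least 1.5-fold lower. Gclm and Srxn1 were higher in macrophage-like nuclei, Gclc was lower in Ccr7+ DC-like nuclei, and Mt2 was lower in the 4 classes in which it could be called. Of these classes, cDC2-like nuclei alone had an Mt2 level above free RNA, and beyond the interval at D0 only. Mt2 in free RNA had a log2 ratio of -1.81. The calls came from 50 comparisons with enough UMIs. Over the 7 classes together 5.81% of all gene-by-class comparisons were higher and 14.5% lower, and the 8 lower calls are near the latter share. Mt1 was called in cDC2-, cDC1-, pDC- and NK cell-like nuclei, and its ratios are not read as a change of expression, as given below. Srxn1 in macrophage-like nuclei, 1 of the 8 higher, had enough UMIs through D5. Mt2 in macrophage-, cDC1- and NK cell-like nuclei had enough with the help of D0, the day on which it was high. With TMM scaling the split was 11 higher and 5 lower of the 50, and the shares over all genes were 13.5% and 6.65%.

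**Figure D1:**
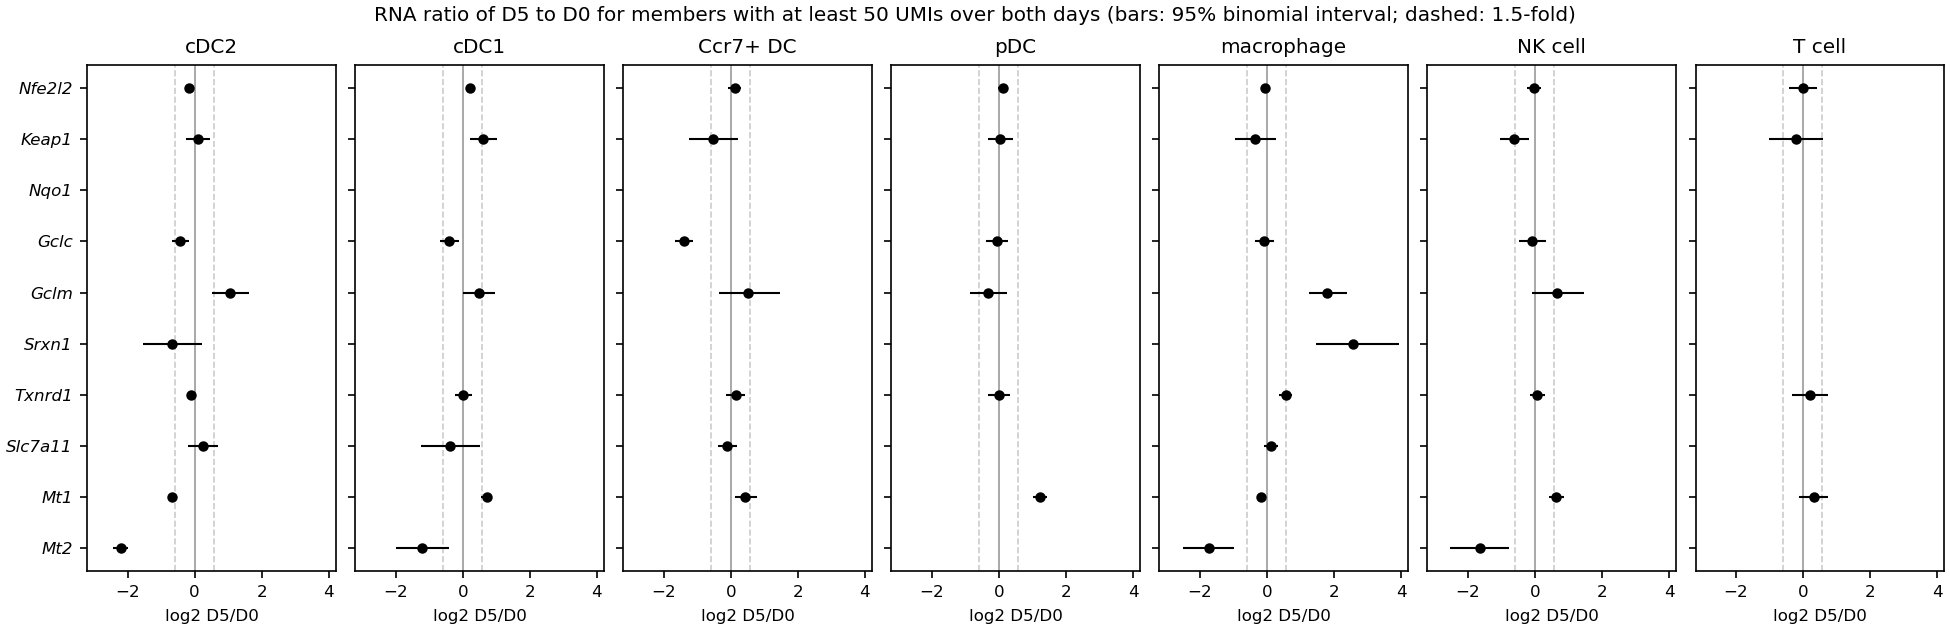
Log2 ratio of D5 to D0 (x axis) for each member (y axis) in 7 classes. Points are ratios of summed UMIs scaled to the class total, bars are 95% exact binomial intervals, dashed lines mark 1.5-fold, and members under 50 UMIs over both days are left out. Gclm and Srxn1 stand to the right in macrophage-like nuclei, and Mt2 stands to the left in each of the 4 classes that show it.

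In macrophage-like nuclei 2 of 9 members with enough UMIs were higher (Gclm and Srxn1) and 1 was lower (Mt2), where 4.69% of the 8192 genes tested were higher and 17.8% lower. Srxn1, with 7 and 86 UMIs, met the minimum through D5, the day on which it was high, so its call cannot be set against that share. In cDC2-like nuclei 1 of 9 was higher (Gclm) and 3 were lower (Srxn1, Mt1 and Mt2), against 5.02% and 15.7% of 10853 genes. cDC1-like nuclei had 2 of 8 higher (Keap1 and Mt1) and 1 lower (Mt2), against 4.51% and 18.2% of 9983 genes. NK cell-like nuclei had 2 of 7 higher (Gclm and Mt1) and 2 lower (Keap1 and Mt2), against 4.68% and 13.9% of 8507 genes. Mt2 had 40 and 25 UMIs in macrophage-like, 28 and 31 in cDC1-like and 49 and 16 in NK cell-like nuclei. It met the minimum there with the help of D0, the day on which it was high, so these Mt2 calls cannot be set against the shares either. In pDC-like nuclei 1 of 6 was higher (Mt1) and none lower, against 4.90% and 8.27% of 9516 genes, and in Ccr7+ DC-like nuclei 1 of 7 was lower (Gclc) and none higher, against 12.4% lower and 12.0% higher of 6870 genes. None of the 4 members with enough UMIs was called in T cell-like nuclei, where 7.18% of 4760 genes were higher and 15.0% lower. The median log2 ratio of all genes tested lay between -0.03 and -0.20 by class and the TMM offset between -0.14 and -0.31.

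Nfe2l2 was the member with the most UMIs and stayed inside 1.5-fold between the days in every class, with and without TMM scaling. Its highest levels were in macrophage-like nuclei, with 644 CPM at D0 (95% interval 606 to 684, 1055 UMIs) and 625 at D5 (599 to 653, 2116 UMIs). cDC2-like nuclei followed with 556 (532 to 581) and 493 (483 to 504), Ccr7+ DC-like nuclei with 376 and 407, and cDC1-like nuclei with 228 and 264. Each of these 4 classes exceeded the next in this order beyond the counting interval at both days. pDC-, NK cell- and T cell-like nuclei held 149.9 to 175 CPM, below the 204 and 186 CPM of free RNA, and did not differ beyond their intervals. The log2 ratios lay between -0.17 (cDC2-like, interval -0.24 to -0.10) and 0.21 (cDC1-like, 0.09 to 0.33), and TMM scaling moved these to 0.09 and 0.52 and the macrophage-like value from -0.04 to 0.27. The cDC2-like nuclei came from 2 clusters: the larger, led by Tnfsf9, Tnip3, Nfkbia, Mgl2 and Il1b, held 688 CPM at D0 and 638 at D5, and the other, led by Sirpb1a, Skint3 and Hpgd, held 335 and 261.

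Keap1, the sensor that binds Nrf2, was low in all classes. It lay between 19.9 CPM (cDC1-like) and 50.6 CPM (NK cell-like) at D0 and between 18.6 (macrophage-like) and 40.1 (T cell-like) at D5, beside 28.6 and 15.9 CPM in free RNA. Neighbours in the order of classes did not differ beyond their intervals on either day. Its level in cDC1-like nuclei went from 19.9 to 30.2 CPM, a log2 ratio of 0.61 (0.22 to 1.01). In NK cell-like nuclei it went from 50.6 to 33.3 CPM, a log2 ratio of -0.61 (-1.04 to -0.18), and the free RNA moved in the same direction by -0.85. TMM scaling left NK cell-like nuclei at -0.39, inside 1.5-fold, and moved cDC1-like nuclei to 0.92. Keeping the doublets left NK cell-like nuclei at -0.51 and cDC1-like nuclei at 0.51, both inside it. The cDC1-like level was 0.693 times that of free RNA at D0 (0.491 to 0.977) and 1.89 times at D5 (1.48 to 2.45).

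**Figure D2:**
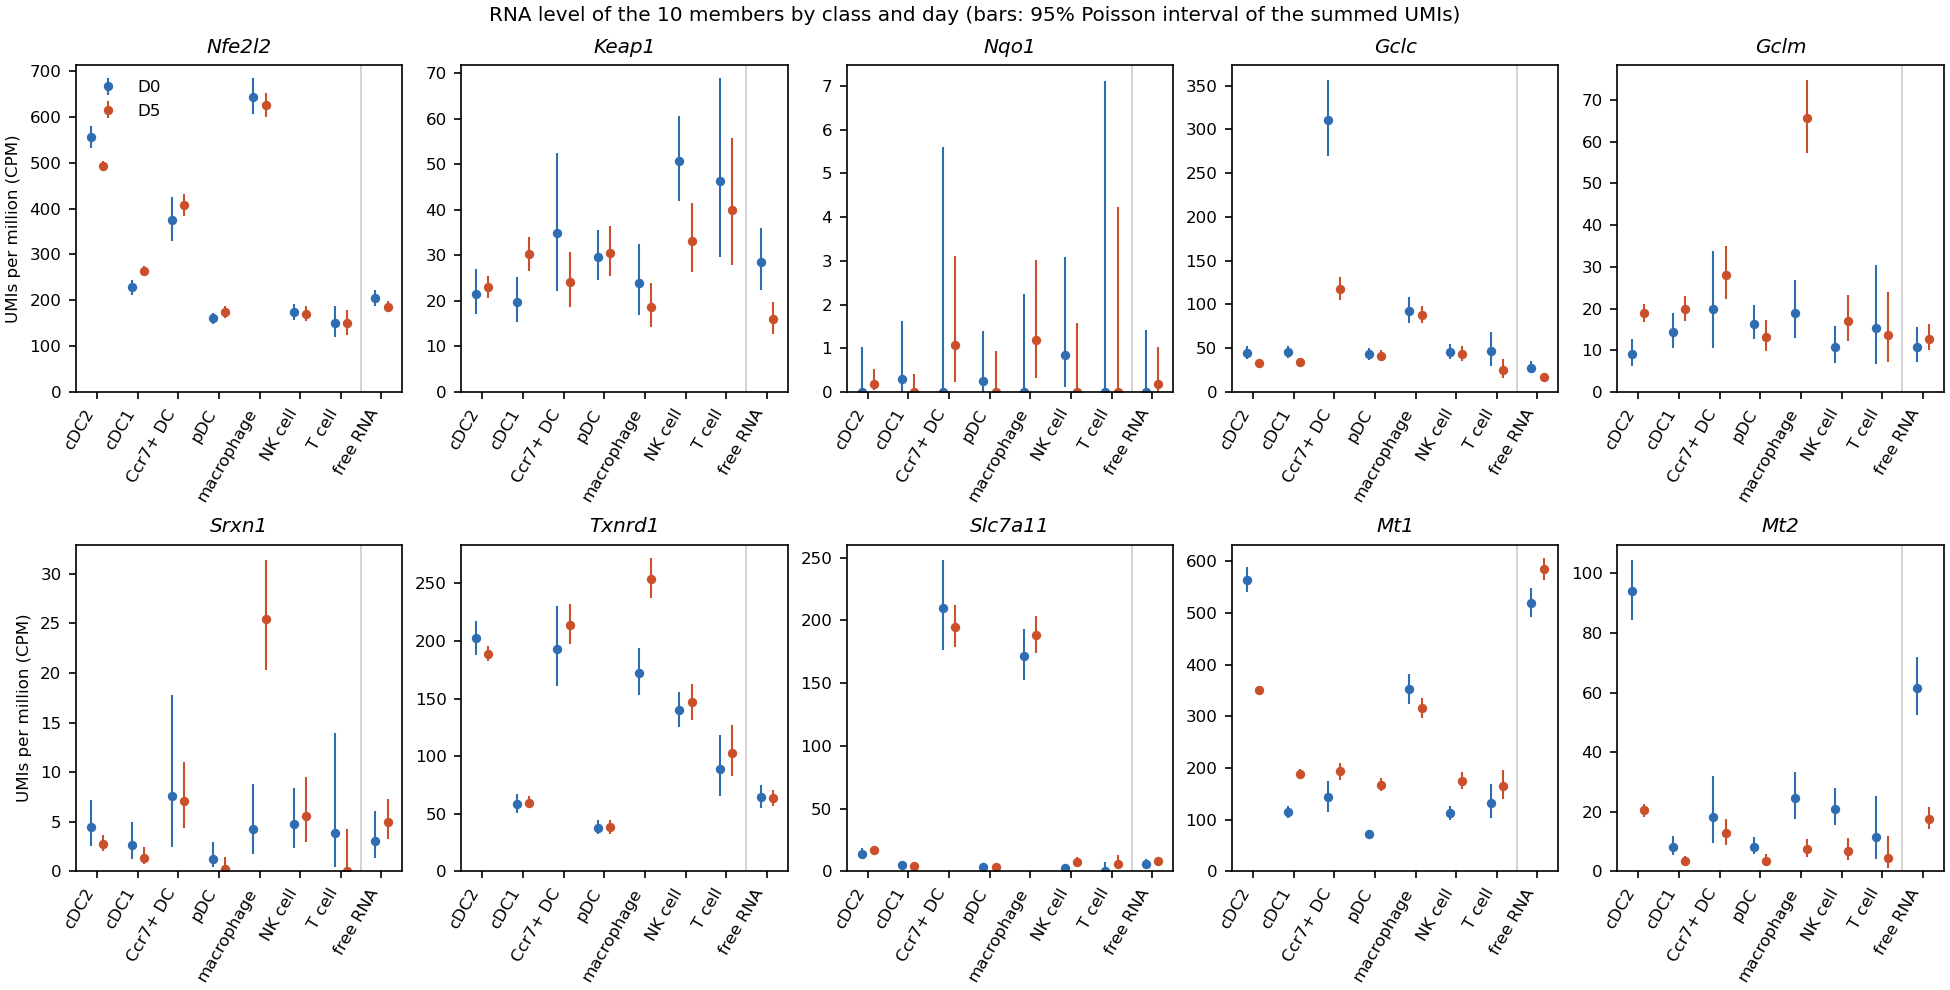
RNA level (y axis, CPM, from 0, own scale for each gene) of the 10 members in 7 classes and in free RNA (x axis) at D0 and D5. Points are summed UMIs per class total and bars are 95% Poisson intervals. Nfe2l2 and Txnrd1 are high in cDC2-, Ccr7+ DC- and macrophage-like nuclei, Slc7a11 in Ccr7+ DC- and macrophage-like nuclei, and the Mt1 level of free RNA exceeds that of every class at D5.

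The glutamate-cysteine ligase that makes the precursor of glutathione has a catalytic subunit, Gclc, and a modifier subunit, Gclm, and the subunits differed from each other. Gclc was highest in Ccr7+ DC-like nuclei, at 310.4 CPM at D0 (269 to 356, 204 UMIs), and stood at 118 at D5 (106 to 131, 332 UMIs). That is a log2 ratio of -1.40 (-1.65 to -1.14), and it lay between -1.16 and -1.61 under the alternatives tried. The UMIs sat in few nuclei: 22.6% of the nuclei held one at D0 and 15.0% at D5, and the 1% of nuclei with the most held 26.5% and 34.9% of them. With each nucleus thinned to 1000 UMIs the shares were 13.8% (10.1 to 18.3) and 7.95% (6.36 to 9.78). On both days the CPM of this class exceeded that of macrophage-like nuclei (92.8 and 88.1 CPM), and both exceeded the remaining classes, which held 25.2 to 46.3 CPM. At D5 the thinned share of macrophage-like nuclei with Gclc was 7.52% (6.10 to 9.14), near that of Ccr7+ DC-like nuclei, so the order at D5 rests on few nuclei. Gclc was lower in cDC2- and cDC1-like nuclei by less than 1.5-fold, with log2 ratios of -0.43 (-0.69 to -0.17) and -0.40 (-0.69 to -0.11), which TMM scaling moved to -0.17 and -0.092. Free RNA held 27.9 and 16.9 CPM of Gclc, with a log2 ratio of -0.72 (-1.19 to -0.26).

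Gclm was a gene of few UMIs at D0 in every class, at 9.12 CPM (cDC2-like) to 19.8 CPM (Ccr7+ DC-like). In macrophage-like nuclei it went from 18.9 CPM (12.9 to 26.9, 31 UMIs) to 65.6 CPM (57.3 to 74.8, 222 UMIs), a log2 ratio of 1.79 (1.25 to 2.39). In cDC2-like nuclei it went from 9.12 CPM (6.28 to 12.8, 33 UMIs) to 18.9 CPM (16.9 to 21.1, 317 UMIs), a log2 ratio of 1.05 (0.53 to 1.61). Both clusters of cDC2-like nuclei showed it, at log2 ratios of 1.18 and 0.86. At D5 the macrophage-like level exceeded that of every other class beyond the interval, whereas at D0 no class exceeded its neighbour. Free RNA held 10.8 and 12.8 CPM, so that at D0 the cDC2-like level was 0.842 times that of free RNA (0.493 to 1.45), and at D5 the macrophage-like level was 5.13 times (3.90 to 6.82) and the cDC2-like level 1.48 times (1.14 to 1.95) that of free RNA. NK cell-like nuclei had a log2 ratio of 0.67 with an interval that reaches below 0 (-0.09 to 1.45).

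Sulfiredoxin (Srxn1), which repairs over-oxidised peroxiredoxins, showed the largest log2 ratio among the members with enough UMIs. In macrophage-like nuclei it went from 4.28 CPM (1.72 to 8.81) to 25.4 CPM (20.3 to 31.4), a log2 ratio of 2.57 (1.47 to 3.93). The UMIs behind it were 7 at D0 and 86 at D5, so it reached the minimum of 50 UMIs through D5. Elsewhere Srxn1 was at 0 to 7.61 CPM, and no level was above the 3.10 and 5.00 CPM of free RNA beyond its interval. At D5 it was below free RNA in pDC-like nuclei, at 0.253 CPM, in cDC1-like nuclei, at 1.38 CPM, and in T cell-like nuclei, with no UMI. The macrophage-like level at D5 was 5.08 times that of free RNA (3.26 to 8.14). Its value of -0.69 in cDC2-like nuclei rested on 16 and 46 UMIs and an interval of -1.54 to 0.23, and its cDC2-like level at D5 was below that of free RNA. With TMM scaling the cDC2-like value was -0.42, inside 1.5-fold. Marker genes of the macrophage-like cluster moved as well. The 10 genes of the macrophage list summed to 1286 CPM at D0 and 1917 at D5, with 9 and 10 of them having a UMI. C1qa went from 380.5 to 533 CPM and Cd5l, a Kupffer cell marker, from 1.83 to 29.9 CPM. Clec4f went from 1.83 to 23.1, Marco from 0 to 12.4 and Vsig4, also of the list, from 2.44 to 7.39 CPM. Adgre1 went from 139 to 105 CPM and Timd4, also a Kupffer cell marker, from 3.05 to 2.07 CPM on 5 and 7 UMIs. Without the nuclei that held a UMI of the nonclassical monocyte list, a filter chosen after the data were seen, the log2 ratios were 2.02 for Gclm and 2.65 for Srxn1. With doublets kept they were 1.36 and 1.76. The part of the makeup of this cluster in these differences was not tested further.

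Cytosolic thioredoxin reductase (Txnrd1) was highest in the same 3 classes as Nfe2l2, but its levels in NK cell- and T cell-like nuclei exceeded that of cDC1-like nuclei, which was not so for Nfe2l2. At D0 it was highest in cDC2-like (202 CPM), Ccr7+ DC-like (193) and macrophage-like nuclei (172), which did not differ from neighbour to neighbour, followed by NK cell-like (139.8), T cell-like (88.8), cDC1-like (58.7) and pDC-like nuclei (37.9). At D5 macrophage-like nuclei stood first at 254 CPM (237 to 272) and exceeded Ccr7+ DC-like nuclei (214) beyond the interval. The macrophage-like log2 ratio was 0.56 (0.37 to 0.76), just inside 1.5-fold, and 0.87 with TMM scaling. The other classes had log2 ratios of -0.10 to 0.21. Within the cDC2-like nuclei the cluster led by Tnfsf9 held 288 and 267 CPM and the cluster led by Sirpb1a 58.6 and 64.9, near the free RNA level of 64.3 and 63.2.

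Slc7a11, the light chain of the cystine-glutamate antiporter that feeds glutathione synthesis, was almost restricted to a pair of the named classes. An unnamed cluster led by Adgrl3, Frmd5 and Adam23 held 35.7 CPM at D0 and 29.0 at D5, and not all unnamed clusters were measured. Ccr7+ DC-like nuclei held 210.0 CPM at D0 (176 to 248) and 195 at D5 (179 to 212), and macrophage-like nuclei 172 (152 to 193) and 188 (174 to 203). cDC2-like nuclei held 14.1 and 16.7 CPM, and the remaining classes 0 to 7.25 CPM beside 6.19 and 8.16 CPM in free RNA. The first 2 classes did not differ from each other beyond the interval on either day, and both exceeded cDC2-like nuclei. The day made no difference of 1.5-fold, with log2 ratios of -0.11 (-0.38 to 0.17) in Ccr7+ DC-like and 0.13 (-0.07 to 0.34) in macrophage-like nuclei.

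Nqo1, a quinone reductase often used as a readout of Nrf2, was close to undetected. It had 14 UMIs over the 7 classes and both days, no more than 4 in any class on a day, and 0 in 8 of the 14 class and day pairs. In cDC2-like nuclei 0 of 3617749 UMIs at D0 allows a level of up to 0.829 CPM, and 0 of 1637337 in macrophage-like nuclei allows up to 1.83 CPM. At D5 the macrophage-like nuclei held 4 UMIs (1.18 CPM, 0.322 to 3.03). A difference between days was not detectable at this depth.

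Among the named classes both metallothionein genes were highest in cDC2-like nuclei, and they were also among the RNA found outside nuclei. Mt1 in cDC2-like nuclei went from 564 CPM (540 to 589, 2041 UMIs) to 350.3 CPM (341 to 359, 5878 UMIs), a log2 ratio of -0.69 (-0.76 to -0.61) and of -0.42 with TMM scaling, which is inside 1.5-fold. Mt2 in the same nuclei went from 94.0 CPM (84.3 to 105, 340 UMIs) to 20.4 CPM (18.3 to 22.7, 343 UMIs), a log2 ratio of -2.20 (-2.42 to -1.98) that lay between -1.94 and -2.26 under the alternatives tried. The Mt1 difference was in the cluster led by Tnfsf9, where it went from 781 to 425 CPM, and not in the cluster led by Sirpb1a, which held 199 and 231 CPM. An unnamed cluster led by Il1r2 and Dab2, with 221 and 2291 nuclei, held 305 and 353 CPM of Mt1, near the cDC2-like level at D5. That first cluster had Mt2 among its 10 leading genes, although the members and the listed genes were left out of the clustering, and it made up 60.8% of the cDC2-like nuclei at D0 and 58.5% at D5. Mt2 was lower at D5 in both clusters, from 140.5 to 28.4 CPM and from 15.6 to 7.74 CPM.

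Free RNA held much of the same transcripts. It held 519 CPM of Mt1 at D0 and 585 at D5, above every class but the cDC2-like nuclei of D0, which were 1.09 times the free RNA level (1.01 to 1.16). Mt2 in free RNA went from 61.5 to 17.6 CPM, a log2 ratio of -1.81 (-2.19 to -1.43), and cDC2-like nuclei were at 1.53 times (1.26 to 1.86) and 1.16 times (0.92 to 1.47) that level. The 9 genes of a hepatocyte list, of which all had a UMI in the cDC2-like nuclei, summed to 56.5 CPM in free RNA at D0 and 31.0 at D5, to 45.9 and 27.0 CPM in cDC2-like nuclei, to 103 and 41.7 in macrophage-like nuclei and to 5.72 to 42.6 in the other classes. Leaving out the 7.41% and 6.32% of cDC2-like nuclei that held a UMI of that list left the Mt2 ratio at -2.24 and the Mt1 ratio at -0.70. At so low a level of the list most nuclei hold no UMI of it, so this removal cannot take out free metallothionein RNA. The part of free RNA in the difference between days was not tested.

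The cDC2-like level of Mt1 was itself below free RNA at D5, at 0.599 times (0.573 to 0.626), so its ratio is not read as a change of expression. In the other classes metallothionein levels lay below free RNA on both days, and the part of free RNA in them was not tested. At D0 macrophage-like nuclei held 0.680 times the Mt1 and 0.397 times the Mt2 level of free RNA. pDC-like nuclei held 0.138 times the Mt1 and 0.135 times the Mt2 level. Mt1 was at 115 and 188 CPM in cDC1-like, 71.8 and 168 in pDC-like, 113 and 175 in NK cell-like, 133 and 166 in T cell-like, 143 and 194 in Ccr7+ DC-like and 353 and 316 in macrophage-like nuclei. The log2 ratios of 0.72, 1.22 and 0.64 in cDC1-, pDC- and NK cell-like nuclei are not read as a change of expression either. That of pDC-like nuclei was 0.64 with doublets kept. Mt2 was at 24.4 and 7.39 CPM in macrophage-like nuclei, a log2 ratio of -1.73 (-2.51 to -0.97), at 8.17 and 3.56 in cDC1-like and at 21.0 and 6.82 in NK cell-like nuclei. Both days stayed at or below the 61.5 and 17.6 CPM of free RNA in these classes. The UMIs of Mt1 per UMI of Mt2 went from 6.00 (5.35 to 6.75) to 17.1 (15.4 to 19.2) in cDC2-like nuclei and from 8.44 (7.16 to 10.0) to 33.2 (27.1 to 41.2) in free RNA. The genes lie 6418 bases apart and have similar coding sequences, so reads shared between them would make either value uncertain.

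The other genes of the pathway were taken from 5 lists, which were chosen with earlier results of these data known. Counts and medians of the lists are therefore not independent of these data, and the shares of all genes beside them are a description. Of 20 other Nrf2 targets, 16 had enough UMIs in macrophage-like nuclei, where 6 were at least 1.5-fold higher at D5 and none lower, with a median log2 ratio of 0.36 beside -0.20 for all genes tested, of which 4.69% were higher and 17.8% lower. In cDC2-like nuclei 16 were tested, with 2 higher and 2 lower and a median of 0.06, and 15 in cDC1-like nuclei had 2 higher and 2 lower and a median of -0.07, where 5.02% and 4.51% of all genes were higher and 15.7% and 18.2% lower. Ccr7+ DC-like nuclei had 4 of 13 higher and none lower, pDC-like nuclei 3 of 13 higher and none lower, NK cell-like nuclei 1 of 14 higher and 4 lower, and T cell-like nuclei 1 of 9 in each direction. Of all genes 12.0%, 4.90%, 4.68% and 7.18% were higher in these 4 classes and 12.4%, 8.27%, 13.9% and 15.0% lower. Hmox1, Fth1, Ftl1, Prdx1, Gstm1 and Blvrb were the 6, of which Hmox1, Prdx1, Gstm1 and Blvrb are named after their values were seen. Macrophage and Kupffer cell markers of this cluster also moved, Cd5l, Clec4f, Marco and Vsig4 up and Adgre1 and Timd4 down, as given above. The part of the cluster's makeup in the values of these genes was not tested. Hmox1, which breaks down heme, went from 55.6 CPM (91 UMIs) to 202 CPM (683 UMIs) in macrophage-like nuclei, a log2 ratio of 1.86 (1.54 to 2.19), and was at 8.02 and 7.93 CPM in cDC2-like nuclei beside 15.1 and 20.2 in free RNA. Prdx1, a peroxiredoxin, went from 355 to 702 CPM in macrophage-like nuclei, a log2 ratio of 0.98 (0.85 to 1.12), beside 386 and 462 CPM in free RNA, so that its D0 level was below free RNA.

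**Figure D3:**
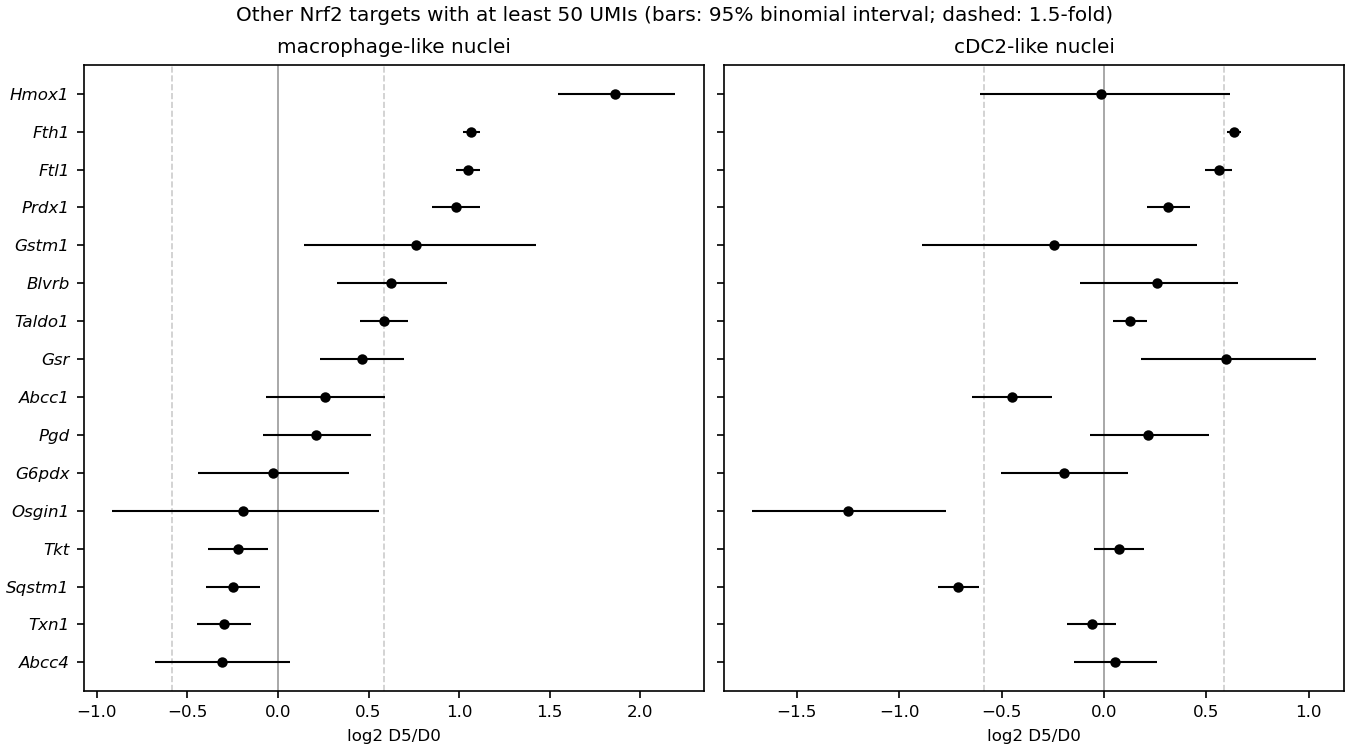
Log2 ratio of D5 to D0 (x axis) of the other Nrf2 targets that had at least 50 UMIs in macrophage-like nuclei (y axis), in macrophage-like and in cDC2-like nuclei. Points are ratios of summed UMIs, bars are 95% exact binomial intervals and dashed lines mark 1.5-fold. Hmox1 is at 1.86 in macrophage-like and at -0.02 in cDC2-like nuclei, and Osgin1 and Sqstm1 stand to the left in cDC2-like nuclei.

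Fth1, the ferritin heavy chain, passed 1.5-fold in all 7 classes, with log2 ratios from 0.64 in cDC2-like nuclei (2024 to 3146 CPM) to 1.17 in Ccr7+ DC-like nuclei (989 and 2228 CPM). Free RNA held 2569 and 4755 CPM, which macrophage-like nuclei alone exceeded (2733 and 5730 CPM). The part of free RNA in the ratios of the other 6 classes was not tested. Ftl1, the light chain, was higher in macrophage-like (1313 to 2715 CPM, log2 ratio 1.05), pDC-like (0.69) and cDC1-like nuclei (0.63), and of these the macrophage-like level alone lay above the 876 and 1196 CPM of free RNA. Gsr, glutathione reductase, was higher in cDC2-like nuclei at 0.59 (0.18 to 1.03), and Pgd, of the pentose phosphate pathway, in pDC-like nuclei at 0.70 (0.17 to 1.24), both from levels below free RNA on both days. Sqstm1, an autophagy receptor that binds Keap1, was lower in cDC2-like nuclei (307 to 187 CPM, log2 ratio -0.71) and in cDC1-like nuclei (210 to 128 CPM, -0.71), as well as in NK cell- and T cell-like nuclei (-0.60 and -0.75), and in free RNA it went from 161 to 110.3 CPM. Osgin1, an oxidative stress-induced growth inhibitor, was lower there too, at -1.25 (-1.72 to -0.77) and -1.57 (-2.20 to -0.94), but lay below the 37.9 and 10.4 CPM of free RNA in both classes.

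Of 12 genes that control Keap1 or Nrf2, 2 of 12 tested were lower in cDC2-like nuclei and none higher, a share near the 15.7% of all genes that were lower there, so the genes are given by their values alone. Bach1, a repressor that competes with Nrf2 for AREs, went from 349 to 179 CPM, a log2 ratio of -0.96 (-1.06 to -0.87), beside 75.5 and 50.6 CPM in free RNA. Fbxw11, a ubiquitin ligase subunit that can target Nrf2, went from 364 to 214 CPM, a log2 ratio of -0.77 (-0.86 to -0.68). In cDC1-like nuclei 2 of 12 were lower, where 18.2% of all genes were. Btrc, the paralogue of Fbxw11, went there from 30.9 to 17.7 CPM, a log2 ratio of -0.81 (-1.17 to -0.44), and Trim21 from 11.1 to 5.05 CPM, a ratio of -1.13 (-1.79 to -0.47). Free RNA was lower at D5 for both as well, at 19.0 and 10.2 CPM for Btrc and 10.5 and 2.97 CPM for Trim21. The median log2 ratio of this list was -0.25 for cDC2-like nuclei and -0.30 for cDC1-like nuclei, near the medians of all genes tested (-0.14 and -0.19), and no gene of it was called in pDC-like nuclei. Ccr7+ DC-like nuclei had 3 of 10 lower (Fbxw11, Gsk3b and Nfe2l1, at -0.67, -0.62 and -0.62) and 1 higher, all named after their values were seen except Fbxw11, where 12.4% and 12.0% of all genes were. Macrophage-like nuclei had 2 of 11 lower (Fbxw11 and Btrc) and 1 higher (Bach2), NK cell-like nuclei 2 of 12 lower and T cell-like nuclei 1 of 6 lower, where 17.8%, 13.9% and 15.0% of all genes were lower. Of all genes in macrophage-like nuclei, 4.69% were higher. Bach2, a relative of Bach1, went from 83.7 to 332 CPM in Ccr7+ DC-like nuclei, a log2 ratio of 1.99 (1.59 to 2.41).

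Of 8 genes of glutathione and cystine handling, 5 to 7 were tested in each class. Glrx, a glutaredoxin, was the 1 lower gene in each class other than T cell-like nuclei. In cDC2-, cDC1- and pDC-like nuclei, where 15.7%, 18.2% and 8.27% of all genes were lower, it had log2 ratios of -0.86 (-1.10 to -0.62), -0.82 (-1.04 to -0.60) and -0.69 (-1.20 to -0.18), and in free RNA it went from 77.8 to 41.2 CPM, above its cDC2- and pDC-like levels on both days. Of 10 metal response genes, which include the zinc sensor Mtf1 and zinc transporters, none of 9 tested was called in cDC2-like, none of 8 in cDC1-like and none of 7 in pDC-like nuclei. In Ccr7+ DC-like nuclei 3 of 5 were called, Slc39a1 and Slc39a10 higher, at 1.04 (0.14 to 2.09) and 0.66 (-0.42 to 1.94), and Mtf1 lower, from 62.4 to 33.0 CPM with a log2 ratio of -0.92 (-1.46 to -0.35), all named after their values were seen, where 12.0% of all genes were higher and 12.4% lower. NK cell-like nuclei had 2 of 7 lower, where 13.9% of all genes were. Their median in cDC2-like nuclei was -0.15 beside -0.14 for all genes. Of 7 glucocorticoid response genes in cDC2-like nuclei, Fkbp5 was higher (31.2 to 50.5 CPM, log2 ratio 0.69) and Zbtb16, Sgk1 and Dusp1 were lower, at -1.77 (-2.18 to -1.35), -1.02 (-1.19 to -0.83) and -0.60 (-0.66 to -0.54), where 5.02% and 15.7% of all genes were higher and lower. In cDC1-like nuclei 6 were tested, and Fkbp5 was higher at 0.90 (0.58 to 1.23) and Sgk1 lower at -1.25 (-1.42 to -1.07), where 4.51% and 18.2% of all genes were higher and lower. None was higher in the 4 other classes outside macrophage-like nuclei, and 1 of 6 was lower in Ccr7+ DC-like, 1 of 7 in NK cell-like, 2 of 5 in T cell-like and none of 6 in pDC-like nuclei, where 12.4%, 13.9%, 15.0% and 8.27% of all genes were lower. In macrophage-like nuclei 1 of 7 tested genes of glutathione handling was higher and 1 lower, 1 of 8 metal response genes was lower, and 1 of 7 glucocorticoid response genes was higher and 2 were lower, where 4.69% of all genes were higher and 17.8% lower.

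Likeness of pattern was measured as Pearson's r of log2(CPM + 1) over the 14 class and day pairs, among genes with at least 200 UMIs, and is a description, since the points share libraries and depth. Nfe2l2 was most like Trps1 (r = 0.975), Rin2 (0.965) and Il1b (0.953), and Txnrd1 was most like Rras (0.953), Castor1 (0.946) and Tgif1 (0.928). The closest to Slc7a11 were Anxa4 (0.958), Gm6209 (0.956) and Osgin2 (0.949), and to Gclc H2-M2 (0.939), Ilrun (0.924) and March5 (0.919). Gclm was most like Ftl1 (0.811), Apoc2 (0.791) and Ms4a7 (0.785), and Srxn1 like Rai14 (0.823), Dazap2 (0.820) and Vegfa (0.815). For Mt1 they were Abca9 (0.920), Il1b (0.913) and Dab2 (0.912), for Mt2 Lrrfip1 (0.890), Elovl5 (0.856) and Gm4107 (0.854), and for Keap1 Cir1 (0.915), Gm20743 (0.900) and Alkbh4 (0.900). A ferritin gene thus led for Gclm, and Il1b was near the top for both Nfe2l2 and Mt1.

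Open chromatin around the members showed few differences between the days. The 47 regions comprised 36 that were called as peaks in both libraries, 2 called at D0 alone and 9 called at D5 alone, and every member had a region at its start site. Of all 162879 regions, 127216 were called in both libraries, a share near that of the members' regions. The libraries held 142799 peaks at D0 and 147725 at D5. The regions called at 1 day alone were not counted by day over all regions, so the 2 and 9 are not read as a difference. Summed over the shared regions within 10 kb, no member in any class was 1.5-fold higher at D5, where 1.01% of 125884 gene windows were, and Nqo1 was lower in cDC2-like nuclei at -0.61 (-1.05 to -0.19) and in Ccr7+ DC-like nuclei at -0.72 (-1.53 to 0.13), where 3.33% of windows were. These calls came from 8 to 10 members with enough fragments in each class, a share near that of all windows. TMM scaling left both Nqo1 ratios inside 1.5-fold. The windows of Gclm and Srxn1 in macrophage-like nuclei, whose RNA was higher at D5, and of Txnrd1, whose RNA was inside 1.5-fold, had log2 ratios of 0.08 (-0.16 to 0.34), 0.04 (-0.19 to 0.27) and -0.08 (-0.29 to 0.12). The Gclc window of Ccr7+ DC-like nuclei, whose RNA was lower, was at 81.9 and 94.5 FPM (fragments per 1000000 fragments in shared regions), a log2 ratio of 0.21 (-0.13 to 0.55).

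Classes differed more than days at the start sites of Slc7a11 and Mt1. The start-site region of Slc7a11 held 30.4 FPM in macrophage-like (20.4 at D5, a log2 ratio of -0.57 with an interval of -1.02 to -0.12), 18.0 in Ccr7+ DC-like and 1.25 in NK cell-like nuclei at D0. The start-site region of Mt1 held 53.4 and 52.9 FPM in cDC2-like, 52.3 and 54.7 in macrophage-like and 34.7 and 41.0 in cDC1-like nuclei, against 6.63 and 6.59 in pDC-like nuclei. The day made little difference at Mt1, with a log2 ratio of -0.01 (-0.19 to 0.17) in cDC2-like nuclei. The start-site regions of Nfe2l2 and Gclm were open in all classes, at 58.7 to 104 and 52.8 to 85.0 FPM.

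Single regions differed at Mt2. The region that spans its start site and holds the window printed above (chr8:94172184-94173016) went in cDC2-like nuclei from 11.9 FPM (81.5 fragments) to 5.84 (104 fragments), a log2 ratio of -1.03 (-1.47 to -0.60). In macrophage-like nuclei it went from 10.9 (34.5 fragments) to 4.91 (18.5 fragments), a log2 ratio of -1.15 (-2.08 to -0.31). The neighbouring region 572 bases before the start site (chr8:94171238-94172091) went from 16.3 to 9.79 in cDC2-like nuclei, -0.73 (-1.09 to -0.39). In Ccr7+ DC-like nuclei its log2 ratio was -0.97 (-1.79 to -0.17), on 24 and 34.5 fragments. cDC1-like nuclei held 5.77 and 4.88 at the start site, -0.24 (-0.87 to 0.42). Over the 36 shared regions the peaks of the libraries differed in width by at most 95 bases. Over all members and classes, 13 of 167 region-by-class comparisons with at least 50 fragments were 1.5-fold lower and 1 was higher, where 6.84% and 4.29% of all shared regions were. The lower count is near its background and the higher count under it, and the Mt2 start site is given by its values alone.

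**Figure D4:**
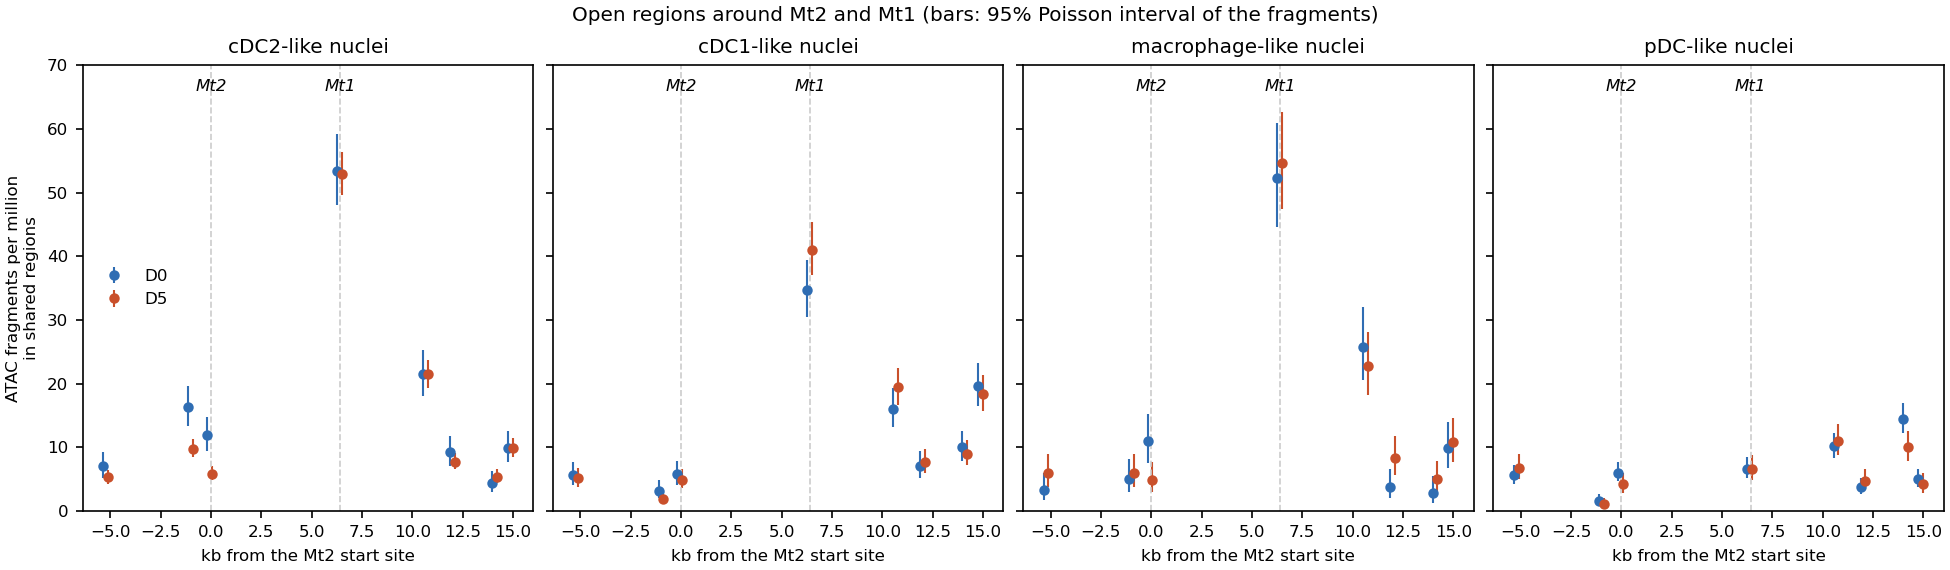
ATAC level in FPM (y axis, from 0) of the 8 regions around Mt2 and Mt1 by distance of the region centre from the Mt2 start site (x axis, kb) in 4 classes at D0 and D5. Bars are 95% Poisson intervals and dashed lines mark the start sites. The region at the Mt2 start site is at 11.9 at D0 and 5.84 at D5 in cDC2-like nuclei, and the region at Mt1 stays near 53.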

How the data were processed

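Nuclei of 1 library a day were read by 10x Multiome. The authors deposited UMI counts per gene and, in a joint matrix of genes and peaks, ATAC counts per peak, made by Cell Ranger ARC 2.0.2 on mm10 per the labels (a file header of the RNA matrices names cellranger 6.0.2). Peaks were called in each library alone. ATAC counts were halved to fragments, and peaks of both libraries were merged where they overlapped. The joint matrix of D5 was tied to its RNA barcodes by the counts over genes, and all 27873 matched.

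A called barcode was kept if it held 1000 UMIs or more, with no more than 10% of them mitochondrial (14278 at D0, 26633 at D5), and those with a Scrublet doublet score of 0.2 or more were removed (23.1% and 25.5%). Scrublet's own thresholds would have called 42.0% and 9.99%. Clusters came from scanpy 1.11.5 (2000 variable genes without members and listed genes, 30 components, Leiden resolution 1) and were named where at least 3 markers of a list were raised 2-fold or more, including 1 of the 10 leading genes or 1 in 2 of the list. The next list could have at most 1 raised marker for every 2, unless 3 or more of the leading genes were markers of the first list and none of the next. The rule was set with the clusters in view. Of the 19 clusters, 7 stayed unnamed. UMIs were summed per class and day. Poisson and binomial intervals are exact (scipy 1.17.1) and cover counting error only, and 3 counts set the limit for a count of 0. With 1 library a day no test was run, and a call is a 1.5-fold difference on at least 50 UMIs or fragments. The steps were tested on simulated data. Alternatives were TMM factors (edgeR 4.0.16), at least 2000 UMIs, no removal of doublets, resolution 0.6, no minimum, windows of 2 kb, no classes and removal of nuclei with a hepatocyte UMI.

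The members and lists were chosen with earlier results of these data known. Named genes are the members, the 3 genes most like each and, of the listed genes, those with a call in cDC2-, cDC1- or pDC-like nuclei, up to 5 a list and direction. Genes outside this rule are marked as named after their values were seen.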

Additional observations from a re-analysis of the deposited data

Results flagged for a closer look

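For 3 members, the log2 ratio of D5 to D0 was called in opposite directions in different classes, and none of these differences was tested, since each day is 1 library. Srxn1 was at 2.57 in macrophage-like and at -0.69 in cDC2-like nuclei, a difference of 3.26, of which the second value rested on 16 and 46 UMIs with an interval that spans 0. With TMM scaling the values were 2.88 and -0.42, the second inside 1.5-fold. Mt1 was at 1.22 in pDC-like and at -0.69 in cDC2-like nuclei, a difference of 1.91, and the level lay below that of free RNA on both days in pDC-like nuclei and at D5 in cDC2-like nuclei. With TMM scaling the Mt1 values were 1.37 and -0.42, the second inside 1.5-fold. Keap1 was at 0.61 in cDC1-like and at -0.61 in NK cell-like nuclei, a difference of 1.21, and these values were 0.92 and -0.39 with TMM scaling.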

How the results depend on the processing

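Of the 8 comparisons of members and classes that were at least 1.5-fold higher at D5, 5 remained in number among nuclei with at least 2000 UMIs. The 8 lower comparisons became 5 with TMM factors, 5 with at least 2000 UMIs and 13 with no minimum beyond 1 UMI. The median log2 ratio of the members in cDC2-like nuclei went from -0.17 to 0.091 with TMM factors and was 0.23 over all nuclei without classes, a median that includes Nqo1 on 7 and 10 UMIs and would be 0.29, the value of Nfe2l2, over the 9 members with enough UMIs. The 2 lower ATAC windows became 0 with TMM factors. Mt1 in NK cell-like nuclei went from 0.64 to -0.044 with at least 2000 UMIs, and the cause of these changes was not tested. Of 61 log2 ratios of single members, 46 stayed within their counting interval with TMM factors, 53 with doublets kept, and all 61 at resolution 0.6 and without nuclei that held a hepatocyte UMI. With at least 2000 UMIs Mt2 in T cell-like and Srxn1 in pDC-like nuclei gave no value, and of the others 48 stayed within it, 10 moved past it and 1, Mt1 in NK cell-like nuclei, changed sign. No paired analysis was possible because each day is 1 library. Depth limits Nqo1, Srxn1 outside macrophage-like nuclei and the T cell-like class.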
